A study of Mus musculus with 4 samples.

Results

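Shared probe sets are groups of neighbouring genes that carry exactly the same acetylation values, as they would if 1 stretch of chromatin had been assigned to all of them. The table gives no probe positions, so this could not be seen directly. They were found in a table of histone H3 lysine 9 acetylation (H3K9ac), which marks the nucleosomes of active promoters, measured by chromatin immunoprecipitation and sequencing (ChIP-seq) in leukaemic mouse bone marrow. A set was formed from gene rows on 1 chromosome, at most 100000 bp apart, with the same number of probes and the same mean and standard deviation in both libraries. A probe is taken here as a genomic window whose reads were counted. The rule found 758 sets that hold 1555 of the 9615 gene rows. With each set counted once, the table holds 8818 entries, of which genes that share only some probes are still separate, so 758 of 8818 entries belong to more than 1 gene row. The members were chosen by the measured values of both libraries, so identity within a set is no finding and no test is given for any set.

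All animals carried floxed alleles of Gfi1b, a repressor gene of the erythroid and megakaryocytic lineages, written Gfi1b(fl/fl), and the leukaemia fusion transgene NUP98/HOXD13, which the strain labels write Nup98(tg). The group that the submitters call WT lacks the Cre transgene, MxCre(wt), and the group called tg carries it, MxCre(tg). In Mx-Cre mice an interferon-inducible promoter drives the recombinase, in blood cells as well as in other cells that respond to interferon. WT here thus does not mean free of the fusion transgene. There was 1 H3K9ac library per group, and the 2 rabbit IgG control libraries were not analysed here. The labels give neither ages, nor the number of animals per library, nor how Cre was induced. With 1 library a group, every difference below compares these 2 libraries and has no replicate check.

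Many mammalian genes lie head to head, with their starts close together on opposite strands, and are transcribed in both directions from 1 promoter that is often a CpG island. Such bidirectional promoters are known for housekeeping genes, among them genes of DNA repair and of the mitochondrial ribosome. Other neighbours overlap because a small RNA lies inside its host gene, as most small nucleolar RNAs (snoRNAs) do, or because a non-coding transcript starts at the promoter of a coding gene. H3K9ac marks the nucleosomes on both sides of an active start site, so ChIP-seq cannot say which of the genes at such a promoter the mark belongs to.

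Read counts were low, with a median of 22 reads per 1-probe row in WT and 11 in tg. The scaling of the values implies totals of 309649 reads for the WT and 163712 for the tg library, which is 1.89 times fewer. These totals were inferred from the 1-probe values. Whether they count all mapped reads or only reads in probes could not be told from the values. Values are given as reads, or as scaled reads, meaning reads scaled so that the implied total becomes 1000000. Of 30 listed erythroid marker genes 19 had a probe, and 17 of these were at least 2-fold higher in tg (median log2 ratio 3.40). Of 17 neutrophil markers 5 had a probe, and all 5 were at least 2-fold lower (median -1.99). Monocyte and dendritic markers were mostly lower (7 of 11, with 1 higher, median -1.79), as were interferon-stimulated genes (12 of 20, median -1.42). Of 6 B cell markers with a probe 4 were lower (median -4.03), and these 4 are the joining segments of 1 shared probe. Of 5 megakaryocyte markers with a probe 2 were higher and 2 lower (median -0.27). Of 11 T and NK cell markers 3 had a probe, 1 of them higher, and of 7 stromal and endothelial markers 1 had a probe and was lower. Over all rows 16.5% were at least 2-fold higher and 15.8% lower. In whole marrow, fewer cells of a type and less acetylation per cell cannot be told apart. The marker lists were made with earlier results of these data known. Their counts are thus a description and no independent check of a shift in cell types. The part of these marker differences in the differences below was not tested.

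The promoters of 6 shared pairs show what such a set looks like in the genome. They are the first pairs from each end of the range of differences and from a list of textbook neighbours, taken where the RefSeq starts (build GRCm38.p6) of the head-to-head genes lie at most 250 bp apart. Each window runs 5′ to 3′ from 250 bases before to 50 bases after the start of the gene on the + strand, the second gene of each name, so that its start is base 251. Capitals mark the motifs searched on both strands, which are CCGGAA (bound by ETS factors such as GABPA), the palindromic NRF1 motif, CCAAT (NF-Y), GGGCGG (SP1), TATAAA (the core promoter element of that name) and AGATAA (bound by GATA factors).
Cdc123/Nudt5, chr2:5844784-5845083, + strand: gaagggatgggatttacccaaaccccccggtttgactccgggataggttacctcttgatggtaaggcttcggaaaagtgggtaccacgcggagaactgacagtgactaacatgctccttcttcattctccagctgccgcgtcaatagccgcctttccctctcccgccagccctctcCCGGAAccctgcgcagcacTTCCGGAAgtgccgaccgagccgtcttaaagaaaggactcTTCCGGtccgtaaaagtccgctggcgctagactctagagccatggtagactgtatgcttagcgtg
Ftsj2/Nudt1, chr5:140331610-140331909, + strand: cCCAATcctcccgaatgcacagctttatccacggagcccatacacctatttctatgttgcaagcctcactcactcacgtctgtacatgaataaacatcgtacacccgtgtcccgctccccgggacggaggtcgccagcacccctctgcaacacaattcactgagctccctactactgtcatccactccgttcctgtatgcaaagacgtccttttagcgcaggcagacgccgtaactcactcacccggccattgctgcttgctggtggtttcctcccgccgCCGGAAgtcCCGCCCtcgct
Ccdc76/Sass6, chr3:116594708-116595007, + strand: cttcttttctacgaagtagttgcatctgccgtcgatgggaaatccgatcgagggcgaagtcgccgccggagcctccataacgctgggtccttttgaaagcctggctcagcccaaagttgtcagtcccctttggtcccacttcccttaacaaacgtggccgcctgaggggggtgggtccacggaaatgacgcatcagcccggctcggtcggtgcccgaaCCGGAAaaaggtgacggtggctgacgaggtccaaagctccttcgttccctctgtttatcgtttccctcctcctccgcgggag
Dnajc17/Zfyve19, chr2:119208470-119208769, + strand: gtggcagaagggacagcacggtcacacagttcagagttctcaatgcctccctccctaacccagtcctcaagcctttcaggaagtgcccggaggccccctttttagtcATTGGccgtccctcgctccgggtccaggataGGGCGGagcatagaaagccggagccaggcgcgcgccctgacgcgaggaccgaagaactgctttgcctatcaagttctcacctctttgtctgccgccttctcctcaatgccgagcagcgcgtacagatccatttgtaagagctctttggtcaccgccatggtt
Surf1/Surf2, chr2:26916158-26916457, + strand: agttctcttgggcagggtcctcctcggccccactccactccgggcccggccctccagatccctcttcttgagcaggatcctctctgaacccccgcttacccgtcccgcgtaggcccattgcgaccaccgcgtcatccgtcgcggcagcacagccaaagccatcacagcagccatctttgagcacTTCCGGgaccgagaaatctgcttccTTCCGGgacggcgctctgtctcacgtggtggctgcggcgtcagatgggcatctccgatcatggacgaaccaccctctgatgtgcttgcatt
Tsc2/Nthl1, chr17:24632432-24632731, + strand: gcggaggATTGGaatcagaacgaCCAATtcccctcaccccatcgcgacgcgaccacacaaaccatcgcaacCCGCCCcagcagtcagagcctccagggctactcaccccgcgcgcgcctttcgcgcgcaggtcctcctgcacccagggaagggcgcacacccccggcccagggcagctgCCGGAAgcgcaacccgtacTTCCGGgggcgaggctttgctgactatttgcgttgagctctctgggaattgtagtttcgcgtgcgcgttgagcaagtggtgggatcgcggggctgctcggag
In the Sass6 window the partner Ccdc76 starts at base 180, and in the Nthl1 window the partner Tsc2 starts at base 196, so both starts of these pairs lie inside the printed stretch. Cdc123 starts 143 bp, Surf1 122 bp, Dnajc17 75 bp and Ftsj2 38 bp beyond the start of its partner, so that the transcribed stretches overlap. None of the 6 windows holds TATAAA or AGATAA. With both strands searched, the ETS motif CCGGAA matches 4 times in the window of Cdc123/Nudt5 and is in 5 of the 6. The stretch TTCCGGAA in that window matches on each strand, so its marked stretches are fewer than its matches. The 6 windows hold between 18 and 30 CpG dinucleotides.

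Identical values were found mostly between genes that overlap or lie within 1000 bp. Of 1579 pairs of rows that overlapped or touched, 552 (35.0%) had identical values, as had 204 of 586 pairs (34.8%) with a gap of 1 to 200 bp. The share was 13.9% at 201 to 1000 bp (68 of 488 pairs), 1.44% at 1001 to 2000 bp (5 of 347) and 0.357% at 2001 to 5000 bp (3 of 840). No pair of 1079 was identical at 5001 to 10000 bp. Between 10001 and 100000 bp it was 7 of 11801 pairs (0.0593%), next to 49 of 71522 pairs (0.0685%) between 100001 and 1000000 bp, far outside the limit of the rule.

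**Figure D1:**
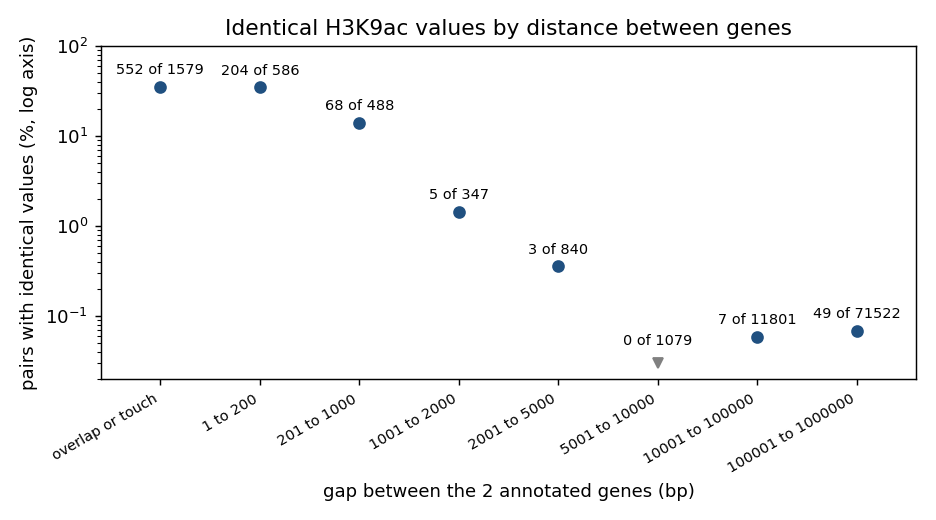
Share of gene row pairs with identical values (y axis, percent, log scale) against the gap between the 2 annotated genes (x axis, bp), with counts of identical and of all pairs above each point; the triangle marks a class with 0 identical pairs. The share is 35.0% for overlapping genes and 0.0685% at 100001 to 1000000 bp.

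Inside the 100000 bp limit, 6 sets were held by a gap above 10000 bp and rested on few reads. The widest was Sufu/Sfxn2, 84561 bp apart, with 12 reads in WT and 5 in tg. Next came Usp39/Ggcx (69124 bp, 14 and 2 reads) and Kif5a/Arhgap9 (60364 bp, 6 and 3 reads). The first identical pair outside the limit was Pik3cb/Cep70, at 102821 bp, with 24 and 11 reads. Each of these pairs has 1 probe. Whether they share a probe or have equal counts by coincidence cannot be told apart from the table. At the other extreme, 509 of the 758 sets hold genes that overlap or touch, and 238 have a gap of 1 to 1000 bp.

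Most sets are pairs: 722 hold 2 genes, 33 hold 3 and 3 hold 4. A total of 697 rest on 1 probe, 50 on 2, and 11 on 3 or more. Of the member rows, 1024 are named genes, 461 unnamed models (symbols such as Gm or Rik numbers), 66 small RNAs and 4 named antisense or host RNAs. In 312 sets every member is a named gene, and in 349 a named gene shares with an unnamed model. In 20 sets the rows carry a single symbol under different Ensembl numbers, as for Evi2b and Mir615, so that 1 locus was listed more than once.

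Strand was taken from the RefSeq promoter table and was found for 1082 of the 1555 member rows, and for both genes of 386 of the 722 pairs (53.5%). Among these 386 pairs, 307 (79.5%) were divergent, meaning head to head. Tandem pairs numbered 26, pairs nested on opposite strands 28, nested on the same strand 21, and convergent pairs 4. By the deposited gene ends, the median distance between the starts of divergent pairs was 159 bp, and 267 of the 307 had starts within 1000 bp. By the closest RefSeq starts the median was 119 bp, with 273 pairs within 1000 bp. Some pairs have distant RefSeq starts, such as Rnaseh2a/Prdx2 (3546 bp), Hjurp/Trpm8 (29156 bp) and 5830403L16Rik/Glul (48734 bp). Read the other way, 322 of 749 divergent neighbours with a gap of at most 1000 bp, or overlapping, shared their values (43.0%), against 3 of 394 convergent neighbours (0.761%) and 27 of 207 tandem neighbours (13.04%). Convergent genes meet at their ends and share no start.

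A close start did not by itself bring identical values. Of 686 divergent pairs with starts at most 1000 bp apart, 283 were identical, 256 had different numbers of probes, and 133 had 1 probe each with different values. The shared 1-probe pairs had more scaled reads per probe. Their median level (mean scaled reads of both libraries) was 117, with quartiles 79.7 and 164. For the genes of pairs whose values differ, each taken singly, it was 53.0 (35.2 and 83.3). Probe widths are not given, and 2 probes may divide the reads of 1 promoter. These levels thus do not compare the acetylation of whole promoters. In the 133 1-probe pairs whose values differ, the log2 ratios of the 2 neighbours had a Spearman coefficient of 0.077. All pairs share libraries and depth. The coefficient was 0.063 in the 29 pairs with both genes at or above the median level of all rows. Counting error at low read counts weakens any relation, so these coefficients do not show that neighbours differ independently. Of the 133 pairs, 3 were at least 2-fold apart in opposite directions. Among 25 textbook neighbour pairs, 5 shared their values, 14 were both listed with different values, 4 had 1 gene listed and 2 none. Brca1 and Nbr1, Atm and Npat, and Hspd1 and Hspe1 are among the 14. Mcm4 and Prkdc are too, with log2 ratios of -0.40 and 1.14.

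The promoter windows of divergent shared pairs were rich in CpG. Across the 307 pairs the median ratio of observed to expected CpG was 0.863 in the window of the + strand gene, and 84.7% of windows exceeded 0.6. For genes that share with no neighbour (6363 windows) the median was 0.800, and for all 32851 RefSeq windows 0.384. The windows were not picked alike. A shared pair gave the + strand start closest to its partner, and a gene that shares with no neighbour its first listed start. The windows of all genes include every listed start. The letters CCGGAA were in 45.6% of the shared windows, in 31.1% of those of genes that share with no neighbour and in 14.9% of all. The NRF1 motif was in 4.24%, 2.45% and 0.971% in the same order. CCAAT went the other way (28.3%, 40.0% and 37.4%), as did TATAAA (4.56%, 6.70% and 13.6%) and AGATAA (3.26%, 6.21% and 11.2%). GGGCGG was in 62.2%, 67.6% and 35.7%. Since strands were found for fewer than 80% of member rows, a check over all sets is void and these shares describe the 307 pairs only. The match of letters is a description and not a binding site.

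**Figure D2:**
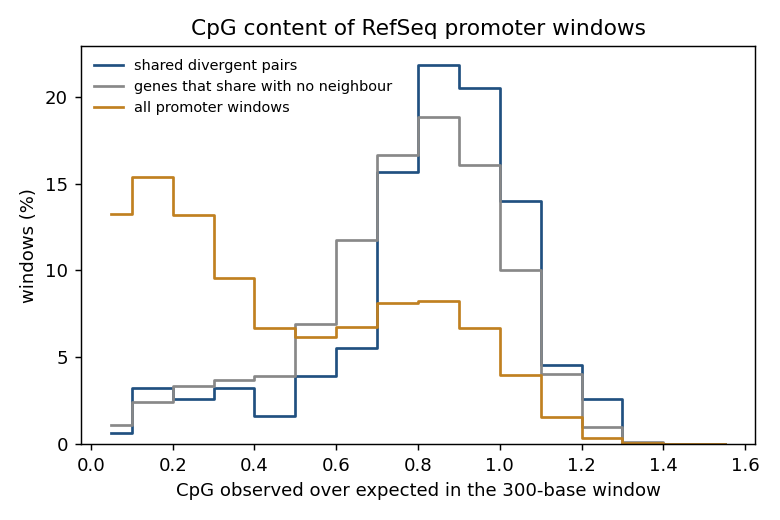
Distribution of the observed over expected CpG ratio (x axis) in 300-base RefSeq promoter windows (y axis, percent of windows) for shared divergent pairs, genes that share with no neighbour and all windows. The medians are 0.863, 0.800 and 0.384. The windows of each group were picked by a different rule, given in the text.

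Shared sets had a higher median level, in scaled reads of probes of unknown width, than rows that share with no neighbour. They also had a smaller spread of differences between the libraries. Their median level was 91.9 scaled reads (quartiles 53.3 and 147), against 58.2 (37.2 and 94.1) for rows that share with no neighbour. They held 9.58% of the implied WT total and 9.10% of the implied tg total, with medians of 30 and 16 reads per set. The median log2 ratio of tg to WT was -0.03 over shared sets and 0.06 over the other rows, and the spread (SD) over sets was 0.98 against 1.32. Levels in WT and tg were related with a Spearman coefficient of 0.743 across shared sets and 0.515 across the other rows, as a description over entries of the same 2 libraries. Among entries with 1 probe the coefficients were 0.746 and 0.592, and the median levels 98.4 and 66.1 scaled reads.

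At least 2-fold higher in tg were 74 of the 758 sets (9.76%), and at least 2-fold lower 96 (12.7%). Over all 9615 gene rows the shares were 16.5% and 15.8%, and over the 8060 rows that share with no neighbour 17.8% and 16.4%. Counting gene rows instead of sets gave 152 of 1555 higher (9.77%) and 198 lower (12.7%). With each shared set counted once, the counts for the whole table went from 1586 to 1508 higher and from 1522 to 1420 lower. Among entries with 1 probe, 8.9% of shared sets were 2-fold higher and 12.1% lower, against 15.6% and 17.0% of the others.

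The H3K9ac level of an entry moved with this difference. Of the 1-probe shared sets, 47.6% fell in the highest of 4 level classes (each about equal in number over all gene rows), and 11.5% in the lowest. Within the highest class 10.8% of 332 shared sets were at least 2-fold apart, next to 15.7% of 1585 other rows. In the third class it was 21.6% of 171 against 27.5% of 1598, in the second 29.8% of 114 against 34.2% of 1315, and in the lowest 48.8% of 80 against 54.6% of 1494. The share was lower for shared sets in each of the 4 classes, and this was not tested.

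**Figure D3:**
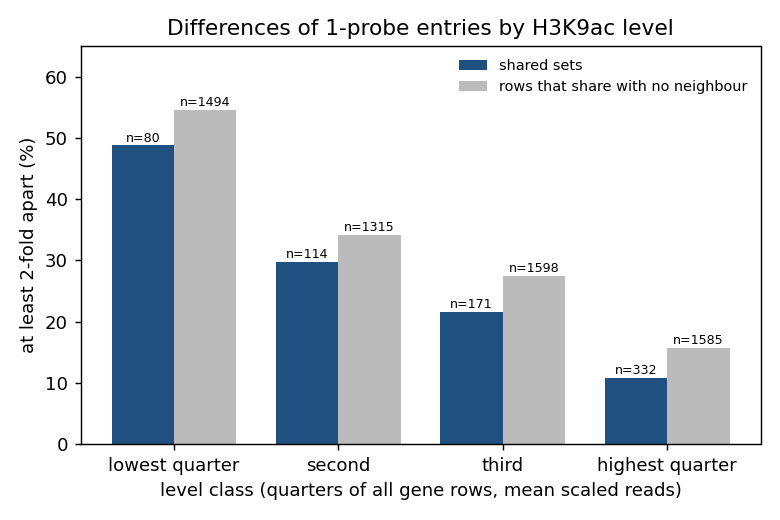
Percent of 1-probe entries at least 2-fold apart between the libraries (y axis) in 4 classes of the H3K9ac level (x axis), for shared sets and for rows that share with no neighbour, with the number of entries above each bar. The bars of shared sets are lower in all 4 classes.

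Counting intervals were wide at these read counts. For 605 of the 756 sets with recovered reads the exact 95% counting interval of the fold included 1. For 1-probe sets the interval lay above 1 in 59 of 697 (8.46%) and below 1 in 75 (10.8%), against 10.7% and 11.8% of all 7423 rows with 1 probe. Of the 74 sets 2-fold higher by the deposited log2 values 46 had an interval above 1, and of the 96 lower ones 64 had an interval below 1. At 144 sets the whole interval lay between 0.5 and 2. The intervals cover counting error only, since there was 1 library per group. They treat reads as independent, so copies of 1 molecule among reads that lack molecular identifiers would make them too narrow.

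**Figure D4:**
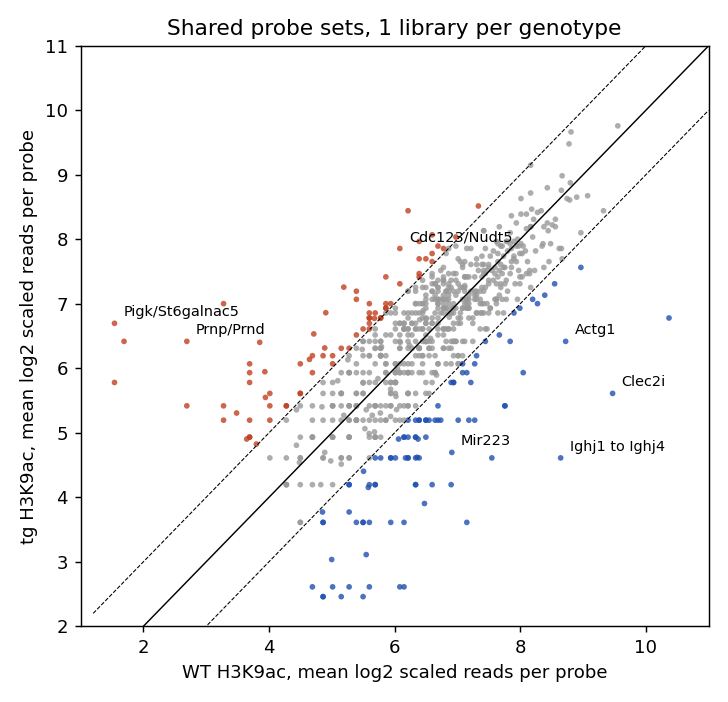
Mean log2 scaled reads of the 758 shared sets in WT (x axis) and tg (y axis), 1 point per set. The solid line marks equality and dashed lines a 2-fold difference; 74 sets lie at or above the upper line (red) and 96 at or below the lower one (blue).

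The 10 sets highest in tg were taken among sets of named genes at or above the median level of all rows, and their genes have varied roles. Cdc123/Nudt5 (chr2:5794294-5871895) went from 21 reads in WT to 38 in tg, 3.42-fold higher (95% interval 1.96 to 6.14). CDC123 assists assembly of the initiation factor eIF2, and NUDT5 hydrolyses ADP-ribose. Ftsj2/Nudt1 had 15 and 21 reads (2.65-fold, 1.30 to 5.52), and NUDT1 clears oxidised purine nucleotides. Rnaseh2a/Prdx2 (chr8:84956610-84974834) had 32 and 39 reads (2.31-fold, 1.41 to 3.80). PRDX2 is a peroxiredoxin abundant in red cells, while RNASEH2A removes ribonucleotides from DNA, and the shared probe gives the mark to neither gene alone. Xrcc6, the Ku70 gene of DNA end joining, overlaps Pppde2 and had 13 and 22 reads (3.20-fold, 1.54 to 6.92).

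The other sets at this end were chosen, like these, for their high ratio, so their intervals describe counting error and are no test. Pigq/Nhlrc4, in tandem on 1 strand, held 4 and 32 WT reads in its 2 probes and 17 and 37 tg reads (2.84-fold, 1.83 to 4.45). Cenpq/Mut joins a centromere gene to the methylmalonyl-CoA mutase gene (26 and 34 reads, 2.47-fold). Mrpl46/Mrps11, both of the mitochondrial ribosome, had 21 and 26 reads (2.34-fold, 1.27 to 4.38). Tmem93/Tax1bp3 (28 and 34 reads) was 2.30-fold higher. Vps53/Fam57a (15 and 18) and Ppp1r15a/Plekha4 (50 and 60) were both 2.27-fold higher. PPP1R15A, also called GADD34, restores translation after stress.

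At the lower end of the same selection the immunoglobulin heavy chain joining segments came first. The probe shared by Ighj1 to Ighj4 (chr12:113428514-113429833) had 124 reads in WT against 4 in tg, 16.4-fold lower (6.24 to 61.1). Beside it, 3 unnamed models (AC073553.1 to AC073553.3, chr12:113424645-113425227) shared another probe of 410 and 18 reads, 12.04-fold lower (7.52 to 20.5). The heavy chain locus thus gave 2 separate shared sets with the same direction. Next among the sets of named genes at or above the median level came Ccdc76/Sass6, of which SASS6 builds the centriole, with 48 and 6 reads (4.23-fold lower, 1.81 to 12.1), and Dnajc17/Zfyve19 40 and 6 (3.52-fold, 1.48 to 10.2). Rnf166/Ctu2 had 46 and 9 reads (2.70-fold, 1.31 to 6.28) and Srrd/Hps4 31 and 6 (2.73-fold, 1.12 to 8.01).

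Some low sets pair a blood cell gene with a gene of another tissue or lineage. Sla, which encodes an adaptor that dampens antigen receptor signals, lies inside Tg, the thyroglobulin gene (chr15:66670753-66850721). Their common value was 32 reads in WT and 6 for tg (2.82-fold lower, 1.16 to 8.25). Dok2, an adaptor gene of myeloid and lymphoid cells, overlaps Xpo7 (chr14:70654246-70778495). Their probe had 28 and 6 reads (2.47-fold lower, 1.00 to 7.29). Xpo7 is the only erythroid marker in a shared set, and also the only one of the 19 with a probe that was 2-fold lower. Mbtps2/Yy2 had the same reads, Ring1/Mir219-1 29 and 6, and the interferon-inducible family members Trim12a/Trim34b 32 and 7 (2.42-fold, 1.05 to 6.49).

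**Figure D5:**
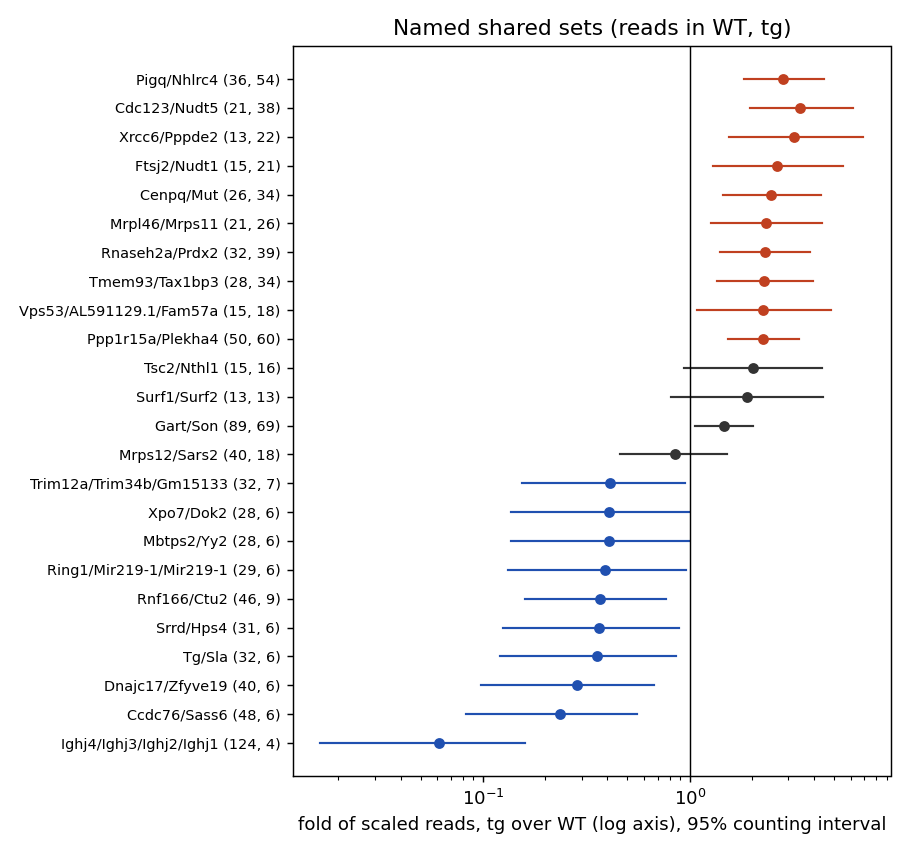
Fold of scaled reads, tg over WT (x axis, log scale), with its exact 95% counting interval for the 10 highest (red) and 10 lowest (blue) named sets and 4 textbook pairs that share (black); reads in WT and tg are in parentheses. The red and blue sets were chosen for their ratios, so the intervals are no test. The intervals of Xpo7/Dok2 and Mbtps2/Yy2 end just below 1.

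The marker lists reach few other shared sets. Prtn3, the proteinase 3 gene of neutrophils, shares with the unnamed model BC005764 (15 and 2 reads). Dtx3l and Parp9, interferon-induced partners in DNA damage signalling, share 77 and 22 reads (1.85-fold lower, 1.14 to 3.12). Vpreb1, a surrogate light chain gene of early B cells, overlaps head to head with the topoisomerase gene Top3b (33 and 30 reads, 1.72-fold higher, 1.01 to 2.91), so its value is not that of a B cell gene alone. Pax5 shares with the unnamed Gm12462 nested in it on the opposite strand (13 and 6 reads). All 6 listed B cell genes with a probe lie in shared sets, 4 of them being joining segments. No marker of the monocyte and dendritic, T and NK cell, megakaryocyte or stromal lists does.

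Of the textbook pairs that share, 4 are described here, and 3 of them had more scaled reads in tg. Gart/Son, which joins purine synthesis to a splicing factor gene, had 89 and 69 reads (1.47-fold higher, 1.05 to 2.03). Tsc2/Nthl1, the tuberous sclerosis gene and a base excision repair gene, had 15 and 16 (2.02-fold, 0.934 to 4.38). Surf1/Surf2 had 13 and 13 (1.89-fold, 0.808 to 4.43). Mrps12/Sars2, both of mitochondrial translation, had 40 and 18 (0.851, 0.459 to 1.52). Of these 4 intervals 3 include 1.

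Of the 6 sets with the highest level 5 were within 2-fold. Arrdc3 with 1700023H06Rik had the highest level (233 and 142 reads, 1.15-fold, 0.929 to 1.43). The replication-dependent histone genes Hist1h4h and Hist1h2af shared 139 and 133 reads (1.81-fold higher, 1.42 to 2.31). Hjurp/Trpm8 had 136 and 117 reads (1.63-fold, 1.26 to 2.10). HJURP loads the centromeric histone, and TRPM8 is the cold sensor of sensory neurons. The closest RefSeq starts of these 2 genes lie 29156 bp apart, although their deposited rows nearly touch. Mrps18b/Ppp1r10/Mir1894 was 1.85-fold lower (199 and 57 reads, 1.37 to 2.52). Hnrnpa2b1/Cbx3, known for an open CpG island between the 2 genes, had 167 and 67 reads (0.759, 0.563 to 1.01). The remaining set is that of the heavy chain models above.

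Histone genes, which lie in clusters and are switched on during DNA replication, formed 7 shared sets with a median log2 ratio of 0.35. The set of Hist2h2ab, Hist2h2ac, Hist2h2be and Gm15444, one of the 3 sets with 4 genes, had 138 and 77 reads (1.06-fold, 0.788 to 1.40). In the family 2 sets were 2-fold higher, those of Hist1h4b (3 and 6 reads) and Hist2h3c1 (10 and 11 reads), and the intervals of both include 1. Of all shared sets 9.76% were 2-fold higher, and over all rows 16.5%, so little can be read from 7 sets. Histone rows that share with no neighbour had a median log2 ratio of 0.44. The third set of 4 genes, beside the joining segments, is the snoRNA host Snhg3 with Snora73a, Snora73b and Gm17300 (43 and 28 reads, 1.23-fold, 0.737 to 2.03).

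Sets with several probes show how the mean over probes acts. Hoxa3 shares 3 probes with Gm20653 and 2700086A05Rik, with 2, 8 and 250 WT reads and 5, 16 and 72 tg reads. The deposited log2 ratio was 1.09, while the summed reads were 1.48-fold lower (1.16 to 1.89). Evi2b, listed under 2 Ensembl numbers, held 6, 12, 12 and 56 WT reads and 1, 3, 3 and 8 tg reads (3.03-fold lower, 1.74 to 5.65). In Sp3/Gm11084 the 4 probes held 6, 8, 39 and 90 reads and 1, 3, 17 and 40 (1.24-fold lower, 0.912 to 1.70). Tomm6/Prickle4/Gm14872, with 4 probes, had 29 and 17 reads in all and a ratio of 1.11 (0.572 to 2.09). The sets with the most probes, A930015D03Rik (12 probes) and BC037034 (5 probes), have log2 ratios of 0.56 and 2.01, and reads were not recovered for them.

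Groups of genes differed in how often they share, by families that were picked after the values were seen. Of 46 rows of small nucleolar and Cajal body RNAs 37 lie in shared sets (80.4%), as do 22 of 39 microRNA rows (56.4%), 20 of 65 mitochondrial ribosomal protein rows (30.8%), 22 of 79 cytosolic ribosomal protein rows (27.8%) and 22 of 101 DNA repair rows (21.8%). Over all rows it was 16.2%. Zinc finger genes (25 of 246, 10.2%) and solute carrier genes (13 of 123, 10.57%) have lower shares, with no test of any of these.

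The 28 sets with a small nucleolar or Cajal body RNA had a median log2 ratio of 0.16, with 2 of them 2-fold higher and 1 lower, against 9.76% higher and 12.7% lower of all shared sets. Single sets ranged from -1.11 to 1.26. Their median level was 133.5 scaled reads, against 91.9 for all shared sets. Eif4a2/Snord2 had 100 and 57 reads (1.08-fold, 0.765 to 1.51). Rpl6/SNORA42 was the lower one, with 49 and 12 reads (2.16-fold, 1.13 to 4.46). In each case the probe cannot be told apart between the small RNA and its host. The 22 sets with a cytosolic ribosomal protein gene had a median of 0.03, with Rpl6 alone past 2-fold.

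Mitochondrial ribosome and DNA repair sets held no 2-fold lower member. Of 19 sets with a mitochondrial ribosomal protein gene 2 were 2-fold higher and none was 2-fold lower (median 0.22). Eme1/Mrpl27, the second besides Mrpl46/Mrps11, had 7 and 8 reads and an interval that includes 1 (0.685 to 7.00). Of 22 sets with a DNA repair gene 4 were 2-fold higher, those of Xrcc6, Nudt1, Rnaseh2a and Nthl1, and none was lower (median 0.51, against 0.24 for DNA repair genes that share with no neighbour). Dclre1b/Ap4b1 was just under the limit with 36 and 38 reads (interval 1.23 to 3.24). Of all shared sets 9.76% were 2-fold higher and 12.7% lower, and over all rows 16.5% and 15.8%. With 19 and 22 sets little can be read from these counts, which were not tested.

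Among 6 sets of interferon-response genes, 2 were 2-fold lower and none was higher. Of all shared sets 12.7% were lower, and with 6 sets little can be read from the count. Their median log2 ratio was -0.86, next to -0.99 for such genes that share with no neighbour. The marker list of interferon-stimulated genes, of which 2 genes are in these sets, was lower as well. Slfn5, with 1700003F17Rik, had 45 and 6 reads (3.97-fold lower, 1.69 to 11.4). Parp12 had 47 and 14, and Oasl1 57 and 20. Oas1b and Oas1c, near copies of each other, shared 28 and 14 reads (0.946, 0.460 to 1.86).

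Of 18 sets with a microRNA 3 were 2-fold lower and none higher, with a median log2 ratio of -0.45. Of all shared sets 12.7% were lower and 9.76% higher, so the lower count is near the background. Mir223, a microRNA of the granulocytic and monocytic lineage, shares 2 probes with its host transcript F630028O10Rik on chromosome X. The probes held 13 and 107 WT reads and 2 and 9 tg reads, 5.77-fold lower (3.11 to 11.9). Mir142, expressed across blood cells, had 155 and 45 reads (1.82-fold lower, 1.30 to 2.60). Mir574, inside Fam114a1, had 20 and 4 (2.64-fold, 0.886 to 10.6), and Ring1/Mir219-1 was the third. Of 20 microRNA symbols in shared sets 17 have a mature sequence in the RefSeq table (GRCm38.p6). The 26 mature forms have 25 different seeds. The arms of the first 3 loci are shown to identify them, 5′ to 3′ with the seed (bases 2 to 8) in capitals, and H3K9ac says nothing about which arm is used.
mmu-miR-142a-5p: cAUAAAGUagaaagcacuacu
mmu-miR-142a-3p: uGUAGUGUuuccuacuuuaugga
mmu-miR-574-5p: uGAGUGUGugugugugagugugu
mmu-miR-574-3p: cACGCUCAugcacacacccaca
mmu-miR-223-5p: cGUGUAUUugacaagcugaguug
mmu-miR-223-3p: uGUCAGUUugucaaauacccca
Of the 14 shared sets on chromosome X 5 were 2-fold lower and 1 was higher (median -0.75), against 12.7% lower and 9.76% higher of all shared sets, with no test. The 2 Y-linked rows of the table are in no shared set.

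Regardless of level and name, the widest differences were mostly at sets with few reads in 1 library, and these sets were singled out after their values were seen. Pigk/St6galnac5, overlapping genes on chromosome 3, had none in WT and 17 in tg, 10.7-fold higher against a floor of 3 reads, with an exact 95% lower bound of 7.8-fold. Yes1, a Src family kinase gene that overlaps Gm15614, had 0 and 9 (5.67-fold against the floor, lower bound 3.73-fold). Pou2f2, the OCT2 gene, shares 1 and 14 reads with D930028M14Rik. The prion gene Prnp and its neighbour Prnd had 2 and 14 (13.2-fold, 3.04 to 120), and Chd3/Gm17305 3 and 21 (13.2-fold, 3.95 to 69.3). Igf2r/Airn, an imprinted gene and its antisense transcript, had 4 and 10 (4.73-fold, 1.36 to 20.7). With more reads, Mkrn1/Gm10244 had 23 and 57 (4.69-fold, 2.84 to 7.97), and Glul, the glutamine synthetase gene, 26 and 41 (2.98-fold, 1.78 to 5.08).

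On the lower side, Clec2i, a lectin-like ligand gene for natural killer receptors, and BC035044 had 220 and 8 reads (14.5-fold lower, 7.25 to 34.1). Actg1, the gamma actin gene, shares with 0610009L18Rik and had 131 and 14 (4.95-fold lower, 2.85 to 9.30). The cytokine gene Clcf1 had 44 and 2 (11.6-fold, 3.03 to 99.0), Limd2 58 and 4 (7.67-fold, 2.84 to 29.1) and Fgl2, within Ccdc146, 58 and 5 over 2 probes (6.13-fold, 2.48 to 19.6). The class I gene H2-Q4, one of a family of near-identical genes, and Itprip each had 67 and 7 reads (5.06-fold, 2.33 to 13.1). Tiparp had 82 and 10 (4.34-fold, 2.24 to 9.38). Each of these shares with an unnamed model, apart from Fgl2.

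Sets that join a named gene to an unnamed model differed more often than sets of named genes. Of the 349 former 41 were higher (11.7%) and 61 lower (17.5%), and of the 312 latter 25 (8.01%) and 24 (7.69%). Their median levels were 86.0 and 97.8 scaled reads. Divergent pairs with starts within 1000 bp had 19 of 267 sets higher and 19 lower (7.12% each) at a median level of 113. Overlapping genes had 11.6% higher and 14.7% lower of 509 at a level of 80.2, and sets with a gap 6.02% and 8.43% of 249 at 119. Sets of unnamed models alone (44 sets, level 56.5) had 11.4% and 13.6%. Of all shared sets 9.76% were higher and 12.7% lower, and over all gene rows 16.5% and 15.8%. No difference between these kinds was tested.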

How the data were processed

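The authors deposited 1 table with a row per Ensembl gene that holds, per the file headers, the count of probes of the gene and the mean and standard deviation of log2 values over them for the 2 H3K9ac libraries. The submitters' processing notes name BWA, SAMtools, FastQC, CASAVA 1.8.2, mm10 and GRCm38. How probes were placed is stated neither by the labels nor by the headers. Columns were matched to samples by library code. For 100% of 7423 rows with 1 probe the linear values were whole reads within 0.01 of a read, with 0 entered as 0.9. The read totals were fitted to these values. Reads of shared sets with up to 4 probes were recovered from mean and standard deviation (756 of 758 sets). Set finding and read recovery were tested on simulated data. Folds have exact conditional binomial (Clopper-Pearson) 95% intervals. Levels are means of both libraries on the linear scale, and fold calls are differences of log2 values of at least 2-fold.

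Named were the 10 highest and 10 lowest sets with at least 2 symbols that are not unnamed models, at or above the median level of all rows (62.1 scaled reads), the 6 with the highest level, 5 with most genes, 5 with most probes, 4 textbook pairs, marker genes and sets at the distance limit. Members and lists were chosen with earlier results of these data known. Of 1173 member rows with a RefSeq symbol 1172 overlapped its position. Python 3.11.15, pandas 2.3.3 and SciPy 1.17.1 were used. A few sets are not reported here.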

Additional observations from a re-analysis of the deposited data

How the results depend on the processing

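No paired analysis was possible because each group has 1 library and no test was made. The 758 sets became 516 with overlapping or touching genes only, 752 with a gap of up to 10000 bp, 797 with up to 1000000 bp, and 738 with at least 2 different symbols. Asking for identity in 1 library alone gave 878 (WT) and 969 (tg). Sets with 2 or more probes numbered 61. The 74 higher and 96 lower sets became 152 and 198 when each gene row was counted, 37 and 40 at or above the median level, 23 and 41 with a 3-fold rule, 69 and 89 with summed reads, and 68 and 98 after centring on the median of all rows. With a gap of up to 10000 bp, chosen after seeing the data, they were 74 and 95. The divergent share was 78.2% where both genes have a symbol other than an unnamed model. The lower read total of tg limits the low sets, since 3 reads, the floor set here in place of a count of 0, are 18.3 scaled reads there and 9.69 in WT. This floor is a setting and no upper bound.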
